A study of Mus with 18 samples.

Results

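MHC class I molecules present peptides from inside the cell to CD8 T cells, and 10 genes of this pathway were followed across the groups of 2 RNA-seq experiments. The genes are H2-K1, H2-D1, B2m, Tap1, Tap2, Tapbp, Psmb8, Psmb9, Psmb10 and Nlrc5. They were chosen by gene symbol, and all 10 are among the 21401 symbols in each of the 2 expression tables. No measured value entered the choice, although earlier results of these data were known when the genes were chosen.

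The study asked how moringa isothiocyanate-1 (MIC-1), an electrophilic compound from Moringa oleifera seeds, alters the response of skeletal muscle to lipopolysaccharide (LPS), the outer-membrane glycolipid of Gram-negative bacteria. It comprised 18 libraries, 3 for each of control, LPS and LPS-MIC-1 in cells labelled C2C12, a mouse myoblast line, and in gastrocnemius muscle of mice. All samples are labelled wild type. Cells labelled LPS received 1 μg/mL LPS, and those labelled LPS-MIC-1 received LPS with MIC-1 over 24 h. For MIC-1 in cells the labels state 10 μM, which lies in the range of 1 to 10 μM in the study's methods. The study's results state 1 μM for the transcriptome. The mice were C57BL/6 males. LPS was given intraperitoneally at 10 mg/kg, MIC-1 by oral gavage at 80 mg/kg daily for 3 days before LPS in 10% DMSO, and muscle was taken 16 h after LPS. The labels name a saline vehicle for the controls. The study instead names ethanol for cells in its methods and 10% DMSO for control mice in a figure legend. By the labels a single immortalised line stands for cultured muscle, which marker genes went against in the control and LPS cell libraries, as described below. Whole gastrocnemius holds fibres, vessels, connective tissue and leukocytes together.

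A class I molecule is a heavy chain, encoded in the mouse by H2-K1, H2-D1 and related genes, bound to the light chain β2-microglobulin. Peptides are cut in the cytosol by proteasomes, pumped into the endoplasmic reticulum by the Tap1 and Tap2 transporter and loaded with the help of tapasin, the product of Tapbp. In immune cells and after interferon, the catalytic subunits Psmb5, Psmb6 and Psmb7 of the proteasome are replaced by Psmb8, Psmb9 and Psmb10, respectively, which gives the immunoproteasome. Nlrc5 is a transactivator of class I genes, and resting skeletal muscle fibres are known for low class I levels. By RefSeq gene order, Psmb9, Tap1, Psmb8 and Tap2 are consecutive coding genes on chromosome 17, which also carries H2-K1, H2-D1 and Tapbp. Psmb10 and Nlrc5 lie on chromosome 8 and B2m on chromosome 2.

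The values are FPKM, which scale reads for transcript length and for the total of a library. Reads per library are unknown, but from the steps between low values the relative depth ranged from 0.549 to 1.21 in the cell libraries, with LPS-MIC-1 replicate 3 the shallowest, and from 0.988 to 1.11 in muscle. Lists of marker genes went against some labels. The cell control and LPS libraries had summed levels of 9683 to 9740 FPKM and 6925 to 7100 FPKM for 11 macrophage genes, and at most 2.83 FPKM for 11 myogenic genes, with Myf5, Msc and Pax7 at 0 in both groups. In the cell LPS-MIC-1 libraries the order was turned around, with 79.8 to 269 FPKM for macrophage genes and 1033 to 1344 FPKM for myogenic genes. The control and LPS libraries labelled C2C12 were therefore macrophage-like by markers, and treatment and kind of cell cannot be told apart where LPS-MIC-1 is compared with either group. These comparisons have no values without those libraries. In muscle, the muscle fibre genes were high in all 9 libraries. The LPS-responsive genes Saa3 and Lcn2, however, averaged 0 and 0.516 FPKM in control, 1.03 and 0.972 FPKM in LPS, and 511 and 1248 FPKM in LPS-MIC-1. Whether the muscle labels LPS and LPS-MIC-1 match the treatments was not tested, which limits every muscle comparison below. Labels were kept as given throughout.

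**Figure D1:**
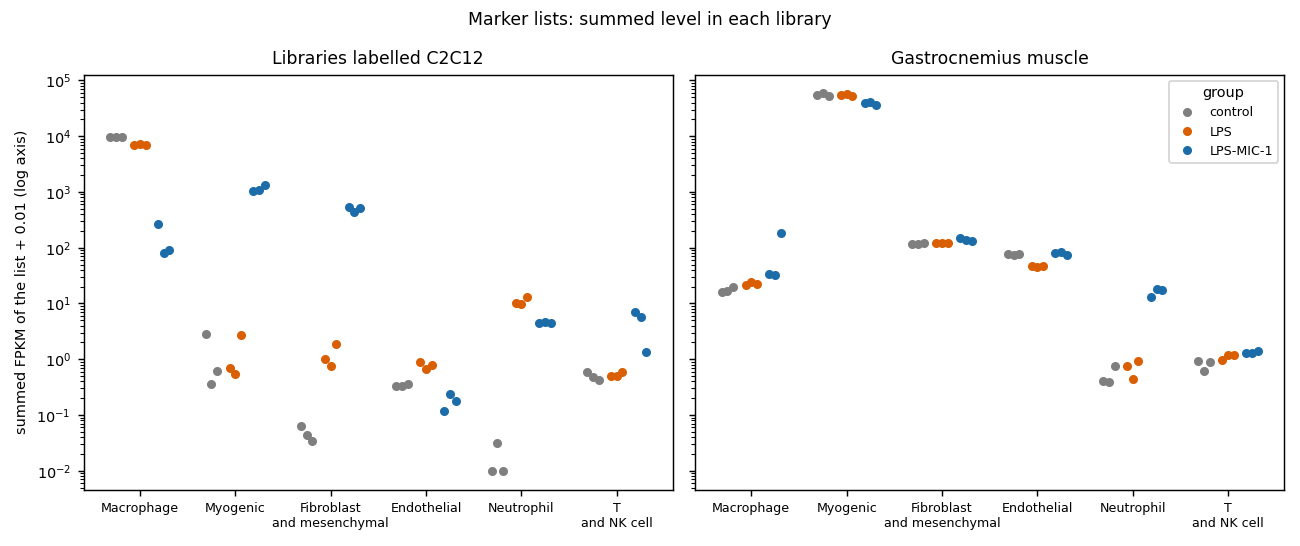
Summed FPKM of marker lists in each library on a log axis, after adding 0.01, for cell libraries (left) and muscle (right), with 3 points per group. In the cell libraries the macrophage sum was at least 6925 FPKM in control and LPS and at most 269 FPKM in LPS-MIC-1, while the myogenic sum was at most 2.83 FPKM in the former and at least 1033 FPKM in the latter.

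In the libraries labelled C2C12, LPS went with more of the peptide transporter, of H2-D1 and of Nlrc5, and with less of the immunoproteasome subunit Psmb10. The LPS-MIC-1 libraries had the lowest levels of 8 of the 10 genes, and Psmb8 and Psmb9 were near 1 FPKM there. The order of the groups was LPS, then control, then LPS-MIC-1 for 5 genes (H2-K1, H2-D1, B2m, Tap1 and Nlrc5). It was control, then LPS, then LPS-MIC-1 for Tapbp, Psmb8 and Psmb9. In these 8 genes no neighbouring groups overlapped. Of all genes tested, 39.4% lay higher and 40.1% lower without overlap for LPS against control. For LPS-MIC-1 against LPS these shares were 41.8% and 43.7%, and 42.7% lay lower for LPS-MIC-1 against control.

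H2-K1, a classical heavy chain, was at 92.6, 89.5 and 88.2 FPKM in the control libraries, 122, 124 and 123 FPKM in LPS, and 10.5, 9.47 and 7.17 FPKM in LPS-MIC-1. H2-D1, the other classical heavy chain, was at 252, 256 and 239 FPKM in control, 516, 507 and 514 FPKM in LPS, and 80.1, 76.3 and 84.2 FPKM in LPS-MIC-1. B2m, the light chain, was at 1176, 1207 and 1103 FPKM in control, 1463, 1545 and 1656 FPKM in LPS, and 728, 684 and 933 FPKM in LPS-MIC-1. For all 3 genes every LPS library lay above, and every LPS-MIC-1 library below, the control libraries. H2-K1 and H2-D1 resemble each other and the H2-Q and H2-T genes in sequence. Some of their reads may therefore have been divided between them, and their single levels are uncertain. C2C12 cells come from C3H mice, whose class I alleles differ from those of C57BL/6, and the part of this in the values was not tested.

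Among the loading genes, Tap1 was at 18.7, 17.8 and 17.7 FPKM in control, 64.7, 64.1 and 63.1 FPKM in LPS, and 4.36, 2.17 and 2.21 FPKM in LPS-MIC-1. Its partner Tap2 was at 16.3, 18.3 and 17.9 FPKM in control, 43.1, 40.6 and 40.1 FPKM in LPS, and 18.1, 17.4 and 17.2 FPKM in LPS-MIC-1. Tap2 alone among the 10 genes had LPS-MIC-1 values overlapping those of control. Tapbp, whose product bridges the transporter and the heavy chain, was at 132, 130 and 127 FPKM in control, 115, 121 and 114 FPKM in LPS, and 57.0, 51.0 and 62.1 FPKM in LPS-MIC-1.

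None of the 3 immunoproteasome subunits was highest in LPS, unlike the heavy chains. Psmb8 was at 72.8, 72.4 and 72.6 FPKM in control, 57.5, 58.9 and 57.8 FPKM in LPS, and 1.41, 0.435 and 1.24 FPKM in LPS-MIC-1. Psmb9 was at 41.2, 41.4 and 40.0 FPKM in control, 29.6, 31.3 and 30.6 FPKM in LPS, and 1.80, 0.725 and 0.693 FPKM in LPS-MIC-1. Both subunits were highest in control, in every library. Psmb10 was at 50.5, 51.6 and 52.8 FPKM in control, 19.7, 19.6 and 20.2 FPKM in LPS, and 29.0, 31.5 and 40.4 FPKM in LPS-MIC-1, so that LPS was the lowest group. Nlrc5 was at 4.18, 3.85 and 3.72 FPKM in control, 14.2, 13.4 and 13.4 FPKM in LPS, and 0.936, 0.836 and 0.508 FPKM in LPS-MIC-1. Among the LPS-MIC-1 libraries, replicate 1 was the highest of 3 for H2-K1, Tap1, Tap2, Psmb8, Psmb9 and Nlrc5 and also had the highest macrophage sum, with Lyz2 at 48.8 FPKM against 1.87 and 0.616 FPKM. The part of this library's macrophage RNA in these levels was not tested.

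**Figure D2:**
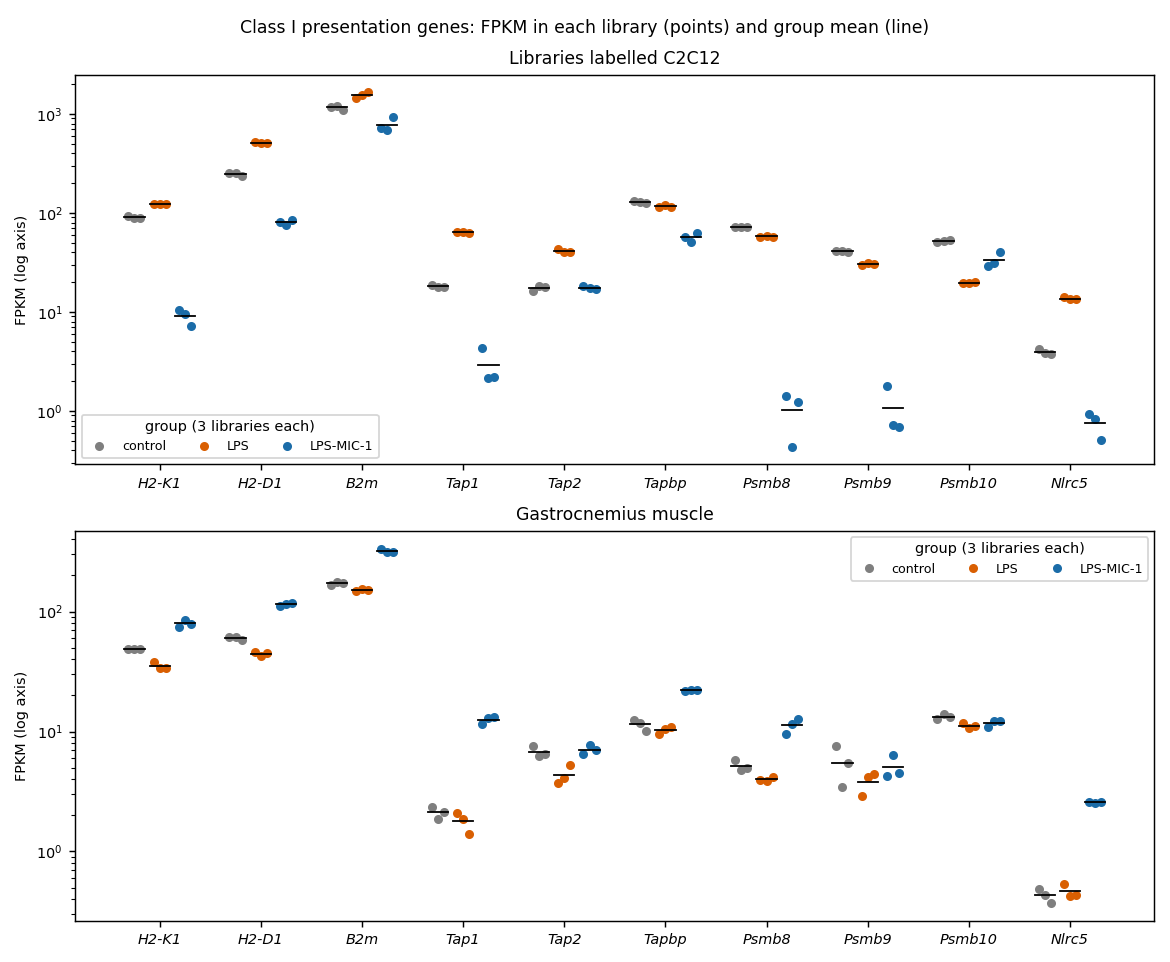
FPKM of the 10 class I presentation genes in every library on a log axis, for cell libraries (top) and muscle (bottom), with points for the 3 libraries of each group and a line at the group mean. In the cell libraries LPS-MIC-1 points lie lowest for 8 genes, whereas in muscle they lie highest for H2-K1, H2-D1, B2m, Tap1, Tapbp, Psmb8 and Nlrc5.

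Differences between groups were tested on log2(FPKM + 0.1) with limma over all genes with a mean FPKM over 1, and a gene was called at an absolute log2 fold change over 1 and a Benjamini-Hochberg adjusted p under 0.001 in cells or 0.05 in muscle. Fold changes on this scale understate those of genes near 0. The labels do not say that replicates were separate cultures or animals, so p-values measure only the spread between these samples, which may be technical. The comparisons within an experiment share groups and are not independent.

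With LPS against control in the cell libraries, 4 of the 10 genes were called higher, where 10.9% of the 10877 genes tested were, and 1 was called lower, where 10.0% were. The median log2 fold change was 0.43 over the 10 genes and 0.00 over all genes tested. Tap1 had the highest log2 fold change, 1.82 (SE 0.23, limma adjusted p = 0.000217), followed by Nlrc5 with 1.77 (SE 0.19, adjusted p = 7.39e-05). Tap2 rose by 1.23 (SE 0.06, adjusted p = 8.94e-07) and H2-D1 by 1.04 (SE 0.05, adjusted p = 7.71e-07). Psmb10 fell by 1.38 on the log2 scale (SE 0.11, adjusted p = 1.32e-05), to 0.385 of its control level. The differences of H2-K1 (0.45, adjusted p = 0.0119), B2m (0.42, adjusted p = 0.0138), Tapbp (-0.15, adjusted p = 0.0925), Psmb8 (-0.32, adjusted p = 0.449) and Psmb9 (-0.42, adjusted p = 0.255) did not pass. The groups of these 5 genes nevertheless did not overlap, which 39.4% of all genes showed in the higher and 40.1% in the lower direction. When the 6 libraries compared were fitted without the LPS-MIC-1 libraries, 5 genes passed the adjusted p in the higher and 3 in the lower direction. In all 9 libraries 4 and 1 passed (18.6% and 19.3% of all genes there). Calls over all genes rose as well, from 1182 higher and 1093 lower in the fit of 9 libraries to 1353 and 1233 in that of 6. The share of all genes passing the adjusted p in the fit of 6 is not given. The fit of 6 libraries put no further gene past the fold threshold. The fit of 9 libraries takes its spread from LPS-MIC-1 too, where Psmb8 and Psmb9 varied most. Over the alternatives the limma adjusted p ranged from 1.12e-05 to 0.557 for Psmb8 and from 4.85e-05 to 0.381 for Psmb9. Tap1 missed the adjusted p when any control or LPS library was left out, at up to 0.00138.

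With LPS-MIC-1 against LPS in the cell libraries, 9 of the 10 genes were called lower, where 25.6% of all genes tested were. Their median log2 fold change was -3.22 over the 10 genes and -0.05 over all genes. Psmb8 fell to 0.0177 of its LPS level (log2 fold change -5.82, SE 0.34, limma adjusted p = 7.74e-07), further than the other 8 genes called. Psmb9 followed with -4.83 (SE 0.30, adjusted p = 1.07e-06), Tap1 with -4.49 (SE 0.23, adjusted p = 3.96e-07) and Nlrc5 with -4.03 (SE 0.19, adjusted p = 2.15e-07). The heavy chains H2-K1 and H2-D1 had log2 fold changes of -3.77 and -2.67. Tap2 (-1.23), Tapbp (-1.05) and B2m (-1.004) were called at the lowest sizes of change. LPS-MIC-1 values lay below all LPS values for 9 genes and above them for 1, Psmb10, where 43.7% and 41.8% of all genes did so. The log2 fold change of B2m was -0.91 to -1.14 when single libraries were left out, and its call was lost without LPS replicate 3, or without LPS-MIC-1 replicate 1 or 2. That of Tapbp was lost without LPS-MIC-1 replicate 2, at -0.97. Psmb10 differed the other way, with a log2 fold change of 0.75 (SE 0.11, adjusted p = 0.000256) that passed the adjusted p but not the fold threshold. In the same comparison all 11 macrophage genes were called lower and all 8 myogenic genes tested were called higher, although the latter passed the filter on low values only through LPS-MIC-1 and so had to differ. The part of this exchange in the class I values was not tested. Without LPS-MIC-1 replicate 1, whose macrophage sum was the highest of its group, 8 genes were called lower, where 2874 of 10774 genes tested were. The macrophage-like LPS libraries remained in that fit, so it could not test this part.

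With LPS-MIC-1 against control in the cell libraries, 7 genes were called lower, where 22.1% of all genes were, and the groups of 9 genes did not overlap in the lower direction, where those of 42.7% did. The genes had a median log2 fold change of -1.95, against -0.06 over all genes. Psmb8 had a log2 fold change of -6.15 (SE 0.34, limma adjusted p = 6.46e-07) and Psmb9 of -5.25 (SE 0.30, adjusted p = 7.44e-07). Those of H2-K1, Tap1, Nlrc5, H2-D1 and Tapbp were -3.32, -2.67, -2.26, -1.63 and -1.20, respectively. B2m differed by -0.58 (adjusted p = 0.00181), and Psmb10 by -0.63 (adjusted p = 0.000778), which passed the adjusted p only. For Tap2 the difference was 0.00 with a 95% confidence interval from -0.13 to 0.14, so Tap2 was the gene of the 10 whose LPS-MIC-1 level was closest to control.

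**Figure D3:**
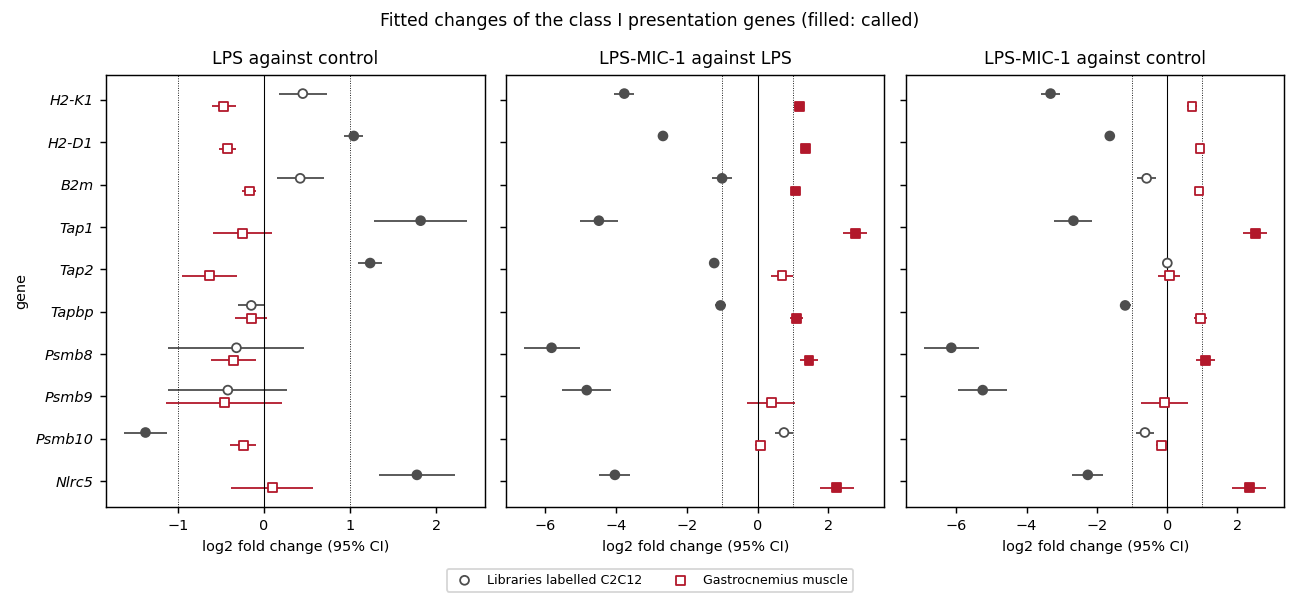
Fitted log2 fold change of each of the 10 genes with its 95% confidence interval, in 3 panels for the 3 comparisons, with circles for cell libraries and squares for muscle. Filled symbols were called, dotted lines mark log2 fold changes of -1 and 1, and in the middle panel 9 circles lie beyond -1 while 7 squares lie beyond 1.

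In gastrocnemius muscle the LPS-MIC-1 group stood highest. Levels of H2-K1, H2-D1, B2m and Psmb8 were highest in LPS-MIC-1, then control, then LPS, with no overlap between neighbouring groups. Of all genes tested, 33.4% lay above control in LPS-MIC-1 without overlap, and 17.7% lay below control in LPS. Tap1, Tapbp and Nlrc5 were highest in LPS-MIC-1, while their control and LPS values overlapped. Tap2 was lowest in LPS, Psmb10 was highest in control, and Psmb9 overlapped between all groups.

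H2-K1 was at 48.3, 48.7 and 48.9 FPKM in control muscle, 38.1, 33.6 and 33.9 FPKM in LPS, and 74.8, 85.1 and 78.7 FPKM in LPS-MIC-1. H2-D1 was at 60.9, 61.4 and 57.5 FPKM in control, 45.9, 42.6 and 45.5 FPKM in LPS, and 111, 116 and 117 FPKM in LPS-MIC-1. B2m was at 165, 175 and 175 FPKM in control, 149, 155 and 152 FPKM in LPS, and 335, 316 and 314 FPKM in LPS-MIC-1. The light chain was thus more abundant per length than either heavy chain in all 9 libraries. In whole muscle, fewer cells of a type and less RNA per cell cannot be told apart.

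Tap1 was at 2.37, 1.88 and 2.14 FPKM in control, 2.09, 1.86 and 1.41 FPKM in LPS, and 11.6, 12.9 and 13.2 FPKM in LPS-MIC-1. Tap2 was at 7.63, 6.28 and 6.45 FPKM in control, 3.73, 4.07 and 5.30 FPKM in LPS, and 6.47, 7.66 and 7.01 FPKM in LPS-MIC-1. Tap1 was therefore below Tap2 in every control and LPS library and above it in every LPS-MIC-1 library. Tapbp was at 12.4, 11.8 and 10.2 FPKM in control, 9.55, 10.5 and 10.9 FPKM in LPS, and 21.7, 22.3 and 22.3 FPKM in LPS-MIC-1. Nlrc5 was at 0.488, 0.432 and 0.372 FPKM in control, 0.536, 0.428 and 0.435 FPKM in LPS, and 2.56, 2.54 and 2.61 FPKM in LPS-MIC-1, and it passed the filter on low values only through the last group.

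Of the 3 immunoproteasome subunits, Psmb8 was the one with all LPS-MIC-1 values above those of both other groups in muscle. Psmb8 was at 5.84, 4.80 and 4.92 FPKM in control, 3.95, 3.90 and 4.21 FPKM in LPS, and 9.60, 11.5 and 12.7 FPKM in LPS-MIC-1. Psmb9 was at 7.55, 3.44 and 5.49 FPKM in control, 2.90, 4.14 and 4.44 FPKM in LPS, and 4.25, 6.32 and 4.50 FPKM in LPS-MIC-1. Psmb9 had the widest spread of the 10 genes in muscle. Psmb10 was at 12.7, 14.1 and 13.2 FPKM in control, 11.7, 10.7 and 11.2 FPKM in LPS, and 10.99, 12.2 and 12.2 FPKM in LPS-MIC-1.

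With LPS against control in muscle, none of the 10 genes was called by limma, where 1.25% of the 9475 genes tested were called in either direction. At an unadjusted p under 0.05, 6 genes were lower, where 14.2% of all genes were. The LPS values lay below all control values for 6 genes, where 17.7% of all genes did so. The adjusted p alone was passed by 5 genes, all lower in LPS, where 7.48% of all genes passed in that direction. The median log2 fold change was -0.30 over the 10 genes, -0.36 without Nlrc5 and 0.01 over all genes. The heavy chains had log2 fold changes of -0.47 for H2-K1 (SE 0.06, adjusted p = 0.00166) and -0.42 for H2-D1 (SE 0.04, adjusted p = 0.000508). Those of the others that passed were -0.63 for Tap2 (SE 0.14, adjusted p = 0.0176), -0.24 for Psmb10 (SE 0.06, adjusted p = 0.0385) and -0.17 for B2m (SE 0.04, adjusted p = 0.0158). H2-K1 and H2-D1 passed under all 18 alternatives, whereas B2m missed the adjusted p under 5 (up to 0.0613), Tap2 under 3 (up to 0.061) and Psmb10 under 10 (up to 0.117). With any single control or LPS library left out, 2 or 3 genes passed, the 2 being those without LPS replicate 1. With the replicate block, Psmb10 was at an adjusted p of 0.077 and 4 genes passed. Psmb8 differed by -0.36 (adjusted p = 0.074), and Tap1, Tapbp, Psmb9 and Nlrc5 by -0.25, -0.15, -0.46 and 0.09, none of which passed. The summed level of 7 endothelial genes was 75.5 to 78.1 FPKM in control and 45.1 to 46.5 FPKM in LPS, and all 5 endothelial genes tested passed the adjusted p in the lower direction. The part of this in the class I values was not tested.

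With LPS-MIC-1 against LPS in muscle, 7 of the 10 genes were called higher, 6 of 9 without Nlrc5, where 9.67% of all genes tested were, and 8 had all LPS-MIC-1 values above all LPS values, where 32.5% did. The median log2 fold change was 1.14 over the 10 genes, 1.10 without Nlrc5 and -0.01 over all genes. Tap1 rose by 2.76 (SE 0.15, limma adjusted p = 1.21e-06), a 6.78-fold higher fitted level. Nlrc5, which entered the test only through LPS-MIC-1 and so had to differ, had a log2 fold change of 2.24 (SE 0.21, adjusted p = 3.43e-05). Psmb8 rose by 1.45 (SE 0.11, adjusted p = 1.27e-05) and H2-D1 by 1.36 (SE 0.04, adjusted p = 6.17e-08). H2-K1, Tapbp and B2m rose by 1.18, 1.10 and 1.08. Tap2 rose by 0.69 (SE 0.14, adjusted p = 0.00295), below the fold threshold. Psmb9 and Psmb10 differed by 0.38 (adjusted p = 0.295, 95% confidence interval -0.29 to 1.06) and 0.07 (adjusted p = 0.374, interval -0.08 to 0.22) and did not pass.

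Several marker lists moved in the same comparison. The endothelial sum was 73.7 to 83.6 FPKM in LPS-MIC-1, within reach of the control muscle, but its genes were uneven, with Cldn5 at 29.6 to 34.3 FPKM against 4.94 to 6.10 FPKM in LPS and Kdr at 2.35 to 2.74 FPKM against 4.36 to 5.47 FPKM. The neutrophil sum was 13.3 to 18.1 FPKM in LPS-MIC-1 and at most 0.910 FPKM in LPS. The macrophage sum was 31.8, 33.8 and 183 FPKM in the LPS-MIC-1 libraries and 21.0 to 24.3 FPKM in LPS. The high value was that of replicate 3, with Lyz2 at 78.3, Fcer1g at 26.0 and Laptm5 at 19.9 FPKM. Cd14, Fcer1g and Mpeg1, 3 of 7 macrophage genes tested, were called higher, where 9.67% of all genes tested were. Cd14 was under 1 FPKM in every LPS library, and Fcer1g would pass the filter on replicate 3 alone. The filter on low values may therefore have fixed such calls. The genes were uneven in replicates 1 and 2, with Cd14 at 3.39 and 3.74 FPKM against 0.395 to 0.599 FPKM in LPS. Lyz2 was lower there, at 5.27 and 3.93 FPKM against 8.31 to 9.65 FPKM. Without replicate 3 the log2 fold changes of H2-K1, H2-D1, B2m, Tap1 and Psmb8 were 1.18, 1.34, 1.10, 2.73 and 1.36, and all 5 were still called, but the macrophage genes of the other libraries remain in these values. Of 6 fibroblast and mesenchymal genes, Col1a1, Col3a1 and Thy1 were called lower (list median -1.09). With median-ratio scaling 515 of all 9475 genes tested were called lower. Dcn passed the adjusted p in the higher direction, and the sum was 130 to 147 FPKM against 121 to 124 FPKM in LPS. Of 12 muscle fibre genes, 9 passed the adjusted p in the lower direction and 1 in the higher, and none was called. Their sum was 180516 to 194644 FPKM against 226704 to 230333 FPKM. The share of all genes passing the adjusted p alone is not given for this comparison. The T and NK cell sum was 1.303 to 1.40 FPKM in LPS-MIC-1 and 0.974 to 1.20 FPKM in LPS, and no B cell sum in muscle exceeded 0.778 FPKM. The parts of these marker changes in the class I values were not tested.

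With LPS-MIC-1 against control in muscle, 3 genes were called higher, 2 of 9 without Nlrc5, where 9.33% of all genes were. Tap1 rose by 2.51 (SE 0.15, limma adjusted p = 2.05e-06) and Psmb8 by 1.10 (SE 0.11, adjusted p = 6.54e-05). Nlrc5, again tested only through LPS-MIC-1, had a log2 fold change of 2.34 (SE 0.21, adjusted p = 2.53e-05). H2-K1, H2-D1, B2m and Tapbp rose by 0.71, 0.94, 0.91 and 0.95 and passed the adjusted p but not the fold threshold. In all, 7 genes passed the adjusted p in the higher direction, where 30.0% of all genes did, and the groups of the same genes did not overlap, where those of 33.4% of all genes did not. Psmb10 differed by -0.17 (adjusted p = 0.0498), a pass that was lost under 12 of 18 alternatives (adjusted p up to 0.155, and 0.0813 with the replicate block), where 28.5% of all genes passed in the lower direction, and its LPS-MIC-1 values lay below all control values, where those of 31.1% did. Tap2 differed by 0.05 and Psmb9 by -0.08, neither of which passed. The median was 0.92 over the 10 genes, 0.91 without Nlrc5 and 0.01 over all genes.

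Ratios within a library, which do not depend on scaling between libraries, set the inducible catalytic subunits against the constitutive ones they replace. With 3 libraries against 3 the exact 2-sided permutation test cannot give a p below 0.1. All ratio differences described here had that p (0.124 after Benjamini-Hochberg adjustment over 36 tests) unless another is given. In cells Psmb8 to Psmb5 was 0.515 ± 0.018 (SD, n = 3) in the control libraries, 0.400 ± 0.033 with LPS and 0.00316 ± 0.00165 for LPS-MIC-1. Psmb5 itself averaged 141, 146 and 325 FPKM in these groups, and its rise from LPS to LPS-MIC-1 was called (log2 fold change 1.15). Psmb9 to Psmb6 was 0.242 ± 0.005 in control, 0.0791 ± 0.0022 with LPS and 0.00294 ± 0.00196 for LPS-MIC-1. Psmb6 averaged 169, 386 and 379 FPKM, so the constitutive subunit was higher in both treated groups. Psmb10 to Psmb7 was 0.403 ± 0.021, 0.128 ± 0.003 and 0.199 ± 0.018. With LPS alone, all 3 ratios were lower than in control in every library.

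In muscle the inducible subunits were a small fraction of the constitutive ones in every group. Psmb8 to Psmb5 was 0.0294 ± 0.0036 (SD, n = 3) for control, 0.0240 ± 0.0007 with LPS and 0.0768 ± 0.0113 for LPS-MIC-1. Psmb9 to Psmb6 was 0.0257 ± 0.0103, 0.0189 ± 0.0036 and 0.0254 ± 0.0052, with overlap of control and both other groups (exact permutation p = 0.4 and 1). Psmb10 to Psmb7 was 0.0529 ± 0.0031, 0.0436 ± 0.0008 and 0.0474 ± 0.0049, and LPS-MIC-1 overlapped with control (exact permutation p = 0.3) and LPS (exact permutation p = 0.4). A higher inducible share in LPS-MIC-1 than in control was thus measured for Psmb8 and not for the other subunits. Psmb5, Psmb6 and Psmb7 averaged 147 to 257 FPKM across the muscle groups.

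Tap1 and Psmb9 are neighbours transcribed from a shared promoter region, yet their levels parted. In cells the ratio of Tap1 to Psmb9 was 0.443 ± 0.012 (SD, n = 3) for control, 2.10 ± 0.07 with LPS and 2.87 ± 0.40 for LPS-MIC-1. In muscle it was 0.416 ± 0.119 in control, 0.496 ± 0.206 in LPS (exact permutation p = 0.6 for this pair) and 2.57 ± 0.47 in LPS-MIC-1. Tap1 to Tap2 was 1.04 ± 0.10, 1.55 ± 0.04 and 0.165 ± 0.066 in the cell groups. In muscle it was 0.314 ± 0.017 in control, 0.427 ± 0.149 in LPS (exact permutation p = 0.4) and 1.79 ± 0.10 in LPS-MIC-1. The RNA levels of Tap1 and Tap2 were therefore not in a constant ratio across the groups of either experiment. Control and LPS overlapped in muscle, and the cell LPS-MIC-1 libraries also differ from the other cell groups in kind of cell. H2-D1 to H2-K1 was 2.76 ± 0.08, 4.16 ± 0.07 and 9.14 ± 2.27 in cells and 1.23 ± 0.05, 1.27 ± 0.07 and 1.44 ± 0.07 in muscle, where control and LPS overlapped (exact permutation p = 0.4). The tables were normalised apart, and no test was made between experiments.

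**Figure D4:**
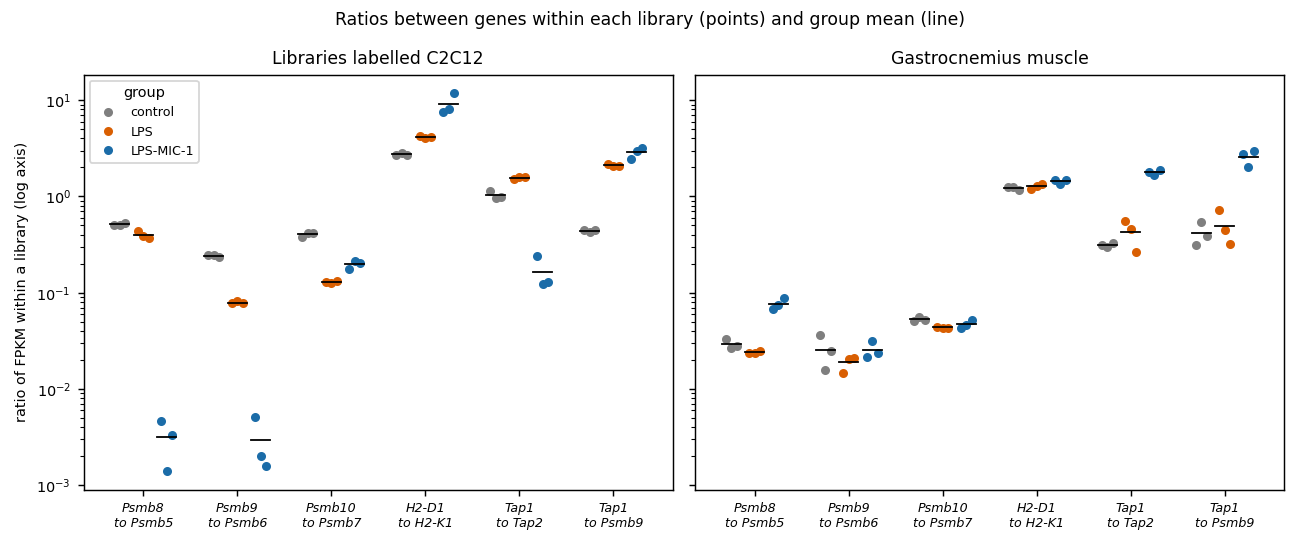
Ratios of FPKM between pairs of genes within each library on a log axis, for cell libraries (left) and muscle (right), with 3 points per group and a line at the group mean. Psmb8 to Psmb5 lies near 0.5 and 0.4 in cell control and LPS and near 0.003 in cell LPS-MIC-1, and Tap1 to Tap2 lies above 1 in muscle LPS-MIC-1 alone of the muscle groups.

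Other genes of the pathway were taken from 7 lists with 65 symbols, of which 62 were found and 49 tested in cells and 43 in muscle. With LPS against control in cells, 10 were called higher and 3 lower, where 10.9% and 10.0% of all genes tested were. Of 9 other heavy chains tested, 4 were called higher, with H2-T23, the Qa-1 chain seen by NK cell receptors, at 34.3 FPKM in control and 76.1 FPKM in LPS (log2 fold change 1.15). H2-M3, which presents N-formylated peptides, was at 10.8 and 27.5 FPKM (1.33), and H2-T24 was called lower (-1.06). Of 9 loading and trimming genes, Hspa5, a chaperone of the endoplasmic reticulum, rose from 365 to 2606 FPKM (2.83) and Tapbpl, a tapasin relative, by 1.22, whereas Erap1, the aminopeptidase that trims peptides, fell from 22.4 to 9.66 FPKM (-1.20). Among 14 regulators, Relb and Rfxank were called higher (1.05 and 1.11). Irf1 (0.18) and Rfx5 (-1.35) did not pass. Rfx5 averaged 10.4 FPKM in control and 4.07 FPKM in LPS. Its spread also came from the LPS-MIC-1 libraries, where it was at 0.637, 0 and 0 FPKM. The kinase Jak2 of the interferon receptors rose by 1.86. None of 5 proteasome activator and assembly genes was called, although 3 passed the adjusted p, among them Psme1 at -0.42 (adjusted p = 0.000928).

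With LPS-MIC-1 against LPS in cells, 3 of the 49 genes were called higher and 20 lower, where 25.6% of all genes tested were called lower. The list median was -0.84. Of 9 other heavy chains, 7 were called lower. H2-Q7 was listed at 0 in all LPS-MIC-1 libraries and averaged 22.6 FPKM in LPS, H2-Q8 averaged 0.338 and 46.9 FPKM, and H2-T9 0.204 and 21.0 FPKM, all genes that may exchange reads with H2-K1 and H2-D1. Irf8, a factor of myeloid cells, was at 55.6 to 57.1 FPKM in LPS and 1.69, 0.127 and 0.161 FPKM in LPS-MIC-1. Irf2, Rfx5 and Nfya were also called lower (-2.25, -4.40 and -3.68). Irf1 differed by -0.96 and passed the adjusted p alone. Of 6 interferon receptor and kinase genes, Ifngr2, Jak1, Jak2 and Ifnar2 were called lower (-1.63, -1.98, -2.34 and -1.34). The 3 genes called higher were Fcgrt, the neonatal Fc receptor (1.87), Pomp, the proteasome maturation protein (1.64), and Psmb5. The background for calls in the higher direction was 24.3% of all genes. With LPS-MIC-1 against control in cells, 6 were called higher, where 21.1% of all genes were, and 16 lower, where 22.1% were.

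In muscle none of the 43 genes was called with LPS against control by limma, where 12 had an unadjusted p under 0.05, against 29.6% of all genes, and 4 passed the adjusted p in each direction, against 8.25% of all genes in the higher and 7.48% in the lower one. With LPS-MIC-1 against LPS, 6 were called higher, where 9.67% of all genes tested were, and none lower. These were H2-T23, at 7.30, 8.47 and 8.43 FPKM in LPS and 18.1, 18.6 and 18.0 FPKM in LPS-MIC-1, H2-Q7 (log2 fold change 1.72), the heavy chain H2-Gs10 (1.35), and the interferon regulatory factors Irf1, Irf2 and Irf8. Irf1, which binds class I and immunoproteasome promoters, was at 4.33, 4.11 and 4.005 FPKM in LPS and 15.8, 16.7 and 15.4 FPKM in LPS-MIC-1 (1.92, SE 0.10, adjusted p = 9.87e-07). Irf2 rose from 8.88 to 20.0 FPKM (1.17) and Irf8 from 2.03 to 5.26 FPKM (1.33). With LPS-MIC-1 against control, 5 were called higher, where 9.33% of all genes tested were, among them H2-T23, Irf1, Irf2 and Irf8. The proteasome activator subunits Psme1 and Psme2 averaged 46.9 and 30.6 FPKM in LPS and 50.1 and 27.6 FPKM in LPS-MIC-1. Ifng, the main inducer of class I genes, did not exceed 0.210 FPKM in any of the 18 libraries, and Ifnb1 did not exceed 0.414 FPKM.

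**Figure D5:**
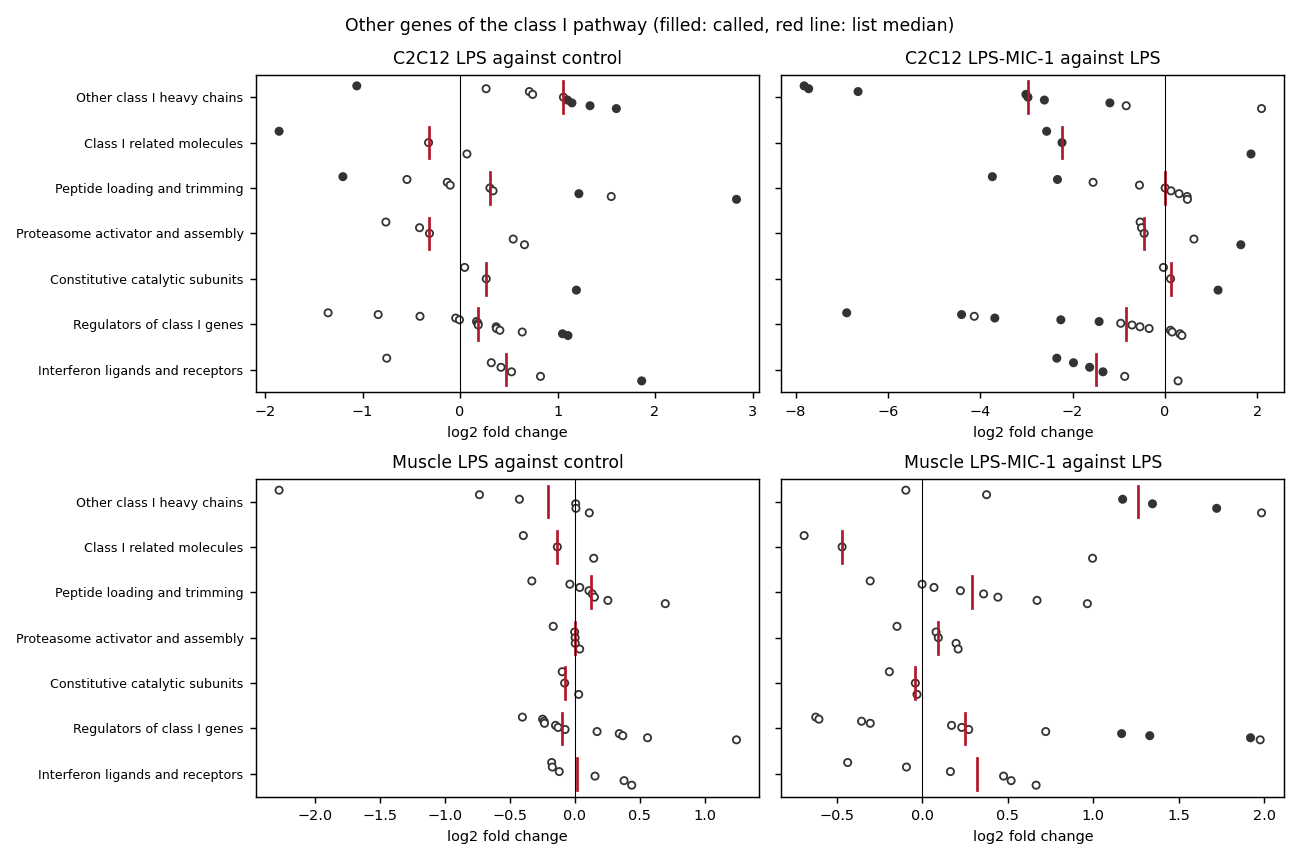
Log2 fold changes of the other class I pathway genes by list, for LPS against control (left) and LPS-MIC-1 against LPS (right), in cell libraries (top) and muscle (bottom), with a circle per gene, filled where called, and a red line at the list median. The median of the other heavy chains was 1.06 and -2.96 in the cell panels and -0.21 and 1.26 in the muscle panels.

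Across the 9 libraries of an experiment, the 10 genes were compared by Pearson's correlation of log2(FPKM + 0.1). The values are a description only, since the points share groups and libraries. In cells the 45 pairwise values had a median of 0.861 and a range from -0.872 to 0.994, and in muscle a median of 0.734 and a range from -0.214 to 0.988. Against the mean scaled profile of the 10 genes, Psmb10 had the lowest value in both experiments (-0.21 in cells and 0.18 in muscle), followed by Tap2 in cells (0.63) and Psmb9 in muscle (0.47). Outside the 10 genes and among all genes tested, the profile was most closely matched in cells by D030016E14Rik, Il2rg, Stom, Pfkp and Xpr1, each with r over 0.999. In muscle it was most closely matched by Notch4, Shank3, Myo1d, Ramp1 and Csf1, with r from 0.989 to 0.990. Csf1 averaged 3.77 FPKM in control, 2.34 FPKM in LPS and 8.42 FPKM in LPS-MIC-1, and Notch4 averaged 3.46, 2.13 and 6.08 FPKM.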

How the data were processed

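RNA was sequenced from cells labelled C2C12 and from gastrocnemius muscle, with 3 libraries per group. The authors pseudoaligned reads with kallisto, brought transcripts to genes with tximport, and deposited an FPKM value for every gene in every library. The submitters' processing notes name kallisto, DESeq2 and the build mm9, and the transcript index is not given in the sources used here. Pseudoalignment divides reads shared by similar class I genes by estimation. The authors' DESeq2 tables of 6 comparisons (base means, fold changes, errors and p-values) were not used, nor were 9 unnamed columns of per-sample values in the muscle table.

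Groups came from the sample labels. The 2 tables were fitted separately by limma (version 3.58.1, R 4.3.3) after log2(FPKM + 0.1), each with its 9 libraries in 3 groups. Genes averaging over 1 FPKM entered, with a trended eBayes spread and Benjamini-Hochberg adjustment over all genes tested (10877 in cells and 9475 in muscle). Thresholds followed the study's methods. Ratios were tested by exact 2-sided permutation. The steps were tested on simulated data. Same-numbered libraries correlated between -0.076 and 0.082 in their deviations from the group means, so the numbers did not pair them. Relative depth was read from the steps of values under 0.3 FPKM, and absolute depth is unknown.

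The 10 genes, the pathway lists and the marker lists were chosen with earlier results of these data known. Named genes are all 10 of them, list genes called in a comparison or among the largest 2 changes of a list, and the 5 genes per experiment with the highest correlation to their mean profile. Saa3, Lcn2, single marker genes, Irf1, Rfx5, Psme1, Psme2, Ifng and Ifnb1 where not called were named after their values were seen. H2-Gs10 is the symbol in the tables for H2-Q4 by RefSeq synonyms. H2-Q5, H2-M2, H2-L, Cd68 and Ly6g were not found by symbol. The result of 1 list gene is not reported here. Gene order came from the RefSeq annotation of GRCm38.p6, and no coordinates were used. Alternatives tried were other pseudocounts (1 and 0.01), other filters (none, or a mean over 5 FPKM), median-ratio scaling and quantile normalisation, an untrended eBayes, fits of the 6 libraries in question, a replicate block and omission of each library. Plots were made in Python 3.11.15 (matplotlib 3.10.9).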

Additional observations from a re-analysis of the deposited data

Results flagged for a closer look

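Several of the 10 genes moved in opposite directions in the 2 experiments, with every library of the first group on 1 side of the second group in cells and on the other side in muscle. The tables were fitted apart, and the difference between experiments was not tested. The cell control and LPS libraries were macrophage-like by markers, and muscle is a mixed tissue, so the experiments differ in kinds of cell as well as in setting.

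With LPS against control, 4 genes were higher in cells and lower in muscle, as were 7.20% of the 8422 genes tested in both. Their log2 fold changes in cells and in muscle were 0.45 and -0.47 for H2-K1, 1.04 and -0.42 for H2-D1, 0.42 and -0.17 for B2m, and 1.23 and -0.63 for Tap2. With LPS-MIC-1 against LPS, 8 genes (7 without Nlrc5, which passed the muscle filter only through LPS-MIC-1) were lower in cells and higher in muscle, as were 16.6% of all genes. The values in cells and in muscle were -3.77 and 1.18 for H2-K1, -2.67 and 1.36 for H2-D1, -1.004 and 1.08 for B2m, and -4.49 and 2.76 for Tap1. They were -1.23 and 0.69 for Tap2, -1.05 and 1.10 for Tapbp, -5.82 and 1.45 for Psmb8, and -4.03 and 2.24 for Nlrc5. With LPS-MIC-1 against control, 7 genes (6 without Nlrc5) were lower in cells and higher in muscle, as were 16.3% of all genes. The values were -3.32 and 0.71 for H2-K1, -1.63 and 0.94 for H2-D1, -0.58 and 0.91 for B2m, and -2.67 and 2.51 for Tap1. They were -1.20 and 0.95 for Tapbp, -6.15 and 1.10 for Psmb8, and -2.26 and 2.34 for Nlrc5. Psmb9 and Psmb10 were in none of these sets.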

How the results depend on the processing

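The number of the 10 genes called stayed within 1.5 times the reported number in all 108 alternatives. Leaving out single libraries gave 4 to 5 calls for LPS against control and 7 to 9 for LPS-MIC-1 against LPS in cells. With the replicate block the calls numbered 5, 9 and 7 in cells and 0, 7 and 3 in muscle, as without it, and the block changed no call of these genes, although Psmb10 missed the adjusted p under it in both muscle comparisons with control. Quantile normalisation shifted the median of all genes by -0.107 and -0.110 in the muscle comparisons of LPS-MIC-1 with LPS and control. Under it the calls of H2-D1 (cells, LPS against control), Tapbp (muscle, LPS-MIC-1 against LPS) and Psmb8 (muscle, LPS-MIC-1 against control, also lost with a pseudocount of 1) were lost, B2m was called lower in cells for LPS-MIC-1 against control, Psmb10 turned to -0.0627 in muscle for LPS-MIC-1 against LPS, and Tap2 in muscle to -0.0990 for LPS-MIC-1 against control. Without a filter the all-gene median moved by 0.234 and 0.248 in the cell comparisons of LPS-MIC-1. Nlrc5 was not tested in muscle with a mean FPKM over 5 or without any single LPS-MIC-1 library, and Tapbp was called higher in muscle for LPS-MIC-1 against control without control replicate 1. For LPS-MIC-1 against control, differences near 0 changed sign: with single libraries left out, Tap2 ranged from -0.0454 to 0.0380 in cells (below 0 without control or LPS-MIC-1 replicate 1) and from -0.0064 to 0.141 in muscle (below 0 without LPS-MIC-1 replicate 2), and Psmb9 in muscle ranged from -0.374 to 0.182 (above 0 without control or LPS-MIC-1 replicate 1). A pseudocount of 1 moved the log2 ratios of cell LPS-MIC-1 to LPS to -6.05 for Psmb8 to Psmb5 (from -6.98) and -3.93 for Psmb9 to Psmb6 (from -4.80), and those to control to -6.41 (from -7.34) and -5.53 (from -6.41), since both inducible subunits are near 1 FPKM there. The causes of the other changes were not tested. Unknown depth allows no counting interval for values near 0.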

Other observations

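Among the class I relatives, the order of the groups differed between genes. In the cell libraries Hfe, which takes part in iron sensing, was at 7.65 ± 0.30 FPKM (SD, n = 3) in control, 2.05 ± 0.21 FPKM in LPS and 0.364 ± 0.099 FPKM in LPS-MIC-1, and it was called lower in LPS than in control (log2 fold change -1.86, limma adjusted p = 3.77e-05). That order is also the order of Tapbp, Psmb8 and Psmb9. Mr1, which presents microbial metabolites, averaged 4.004 FPKM in control, 4.23 FPKM in LPS and 0.707 FPKM in LPS-MIC-1. Fcgrt, which binds IgG and albumin, was at 8.77 ± 1.33 FPKM in control, 6.94 ± 0.24 FPKM in LPS and 25.7 ± 3.0 FPKM in LPS-MIC-1. In muscle Fcgrt was at 29.7 ± 4.6 FPKM, 26.9 ± 1.2 FPKM and 16.8 ± 3.1 FPKM, so its lowest group there was LPS-MIC-1, the group in which H2-K1, H2-D1 and B2m were highest.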
